A study of Penicillium oxalicum with 18 samples.

Results

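The genes described here had low transcript levels on glucose and higher, similar levels on both media without glucose, in the nag3 deletion strain and in the wild type of the filamentous fungus Penicillium oxalicum. They were 51 of the 9226 identifiers with a PDE_ locus tag in the deposited table of 9261 identifiers. Members were chosen from these same data by a rule on group means, M = log2(mean FPKM + 1), where FPKM is a fragment count scaled by gene length and by the total of mapped fragments. The lowest M of the 4 groups grown without glucose had to lie at least 2 above the higher M of the 2 glucose groups, and the 4 groups had to lie within a range under 2. The size of the gap to glucose and the likeness of the other groups were therefore set by the choice and are described without a test. None of the 35 XLOC_ identifiers met the same rule.

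The 6 groups, of 3 libraries each, were the nag3 deletion strain and the wild-type strain 114-2 on bran-cellulose, on N-acetylglucosamine (GlcNAc) and on glucose. All mycelium shared a pre-culture of 24 h at 30 °C with 2% glucose, and was then moved for 24 h to a second medium. That medium contained 1% bran and 1% microcrystalline cellulose (bran-cellulose), 2% GlcNAc, or 2% glucose as the carbon source. The growth protocol names the bran-cellulose and glucose media, and the sample labels also name GlcNAc. Nothing in the labels tells whether replicates of a group were grown separately. The p-values below therefore cover only the spread among these libraries, and that spread may be technical. How many clones stand behind the deletion strain is likewise not stated. The loss of nag3 could not be checked, because no identifier carries that name. FPKM sums ran from 920824 to 1083828 per library and 854 to 955 identifiers were listed at 0.

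In filamentous fungi, glucose is a preferred carbon source, and its presence is known to repress many genes for the uptake and breakdown of other carbon sources, a process called carbon catabolite repression. Cellulose and the polysaccharides of bran have to be cut by secreted enzymes before uptake. GlcNAc is the sugar unit of chitin, a component of the fungal cell wall, and can be taken up as a free sugar. Carbon supply is also known to bear on the switch from vegetative growth to asexual spore formation. Neither the table nor the reference gene list at hand pairs the PDE_ tags with gene names, so no function is given to any member, and members are called by their tags.

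The wild-type glucose libraries differed from each other far more over these genes than the libraries of the other groups did. The median FPKM over the 51 members was 1.02, 1.83 and 7.49 in wild-type glucose replicates 1, 2 and 3. In the deletion on glucose it was 0.10, 0.13 and 0.00, and in the 12 libraries without glucose it lay between 34.6 and 49.1. Replicate 3 of the wild type therefore stood apart on glucose, and the main glucose results below are also given without it. Across the 8390 genes kept for testing, the Pearson correlation of log2(FPKM + 1) between wild-type glucose replicates 1 and 3 was 0.952, the lowest of the 18 replicate pairs, the highest of which was 0.986.

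**Figure D1:**
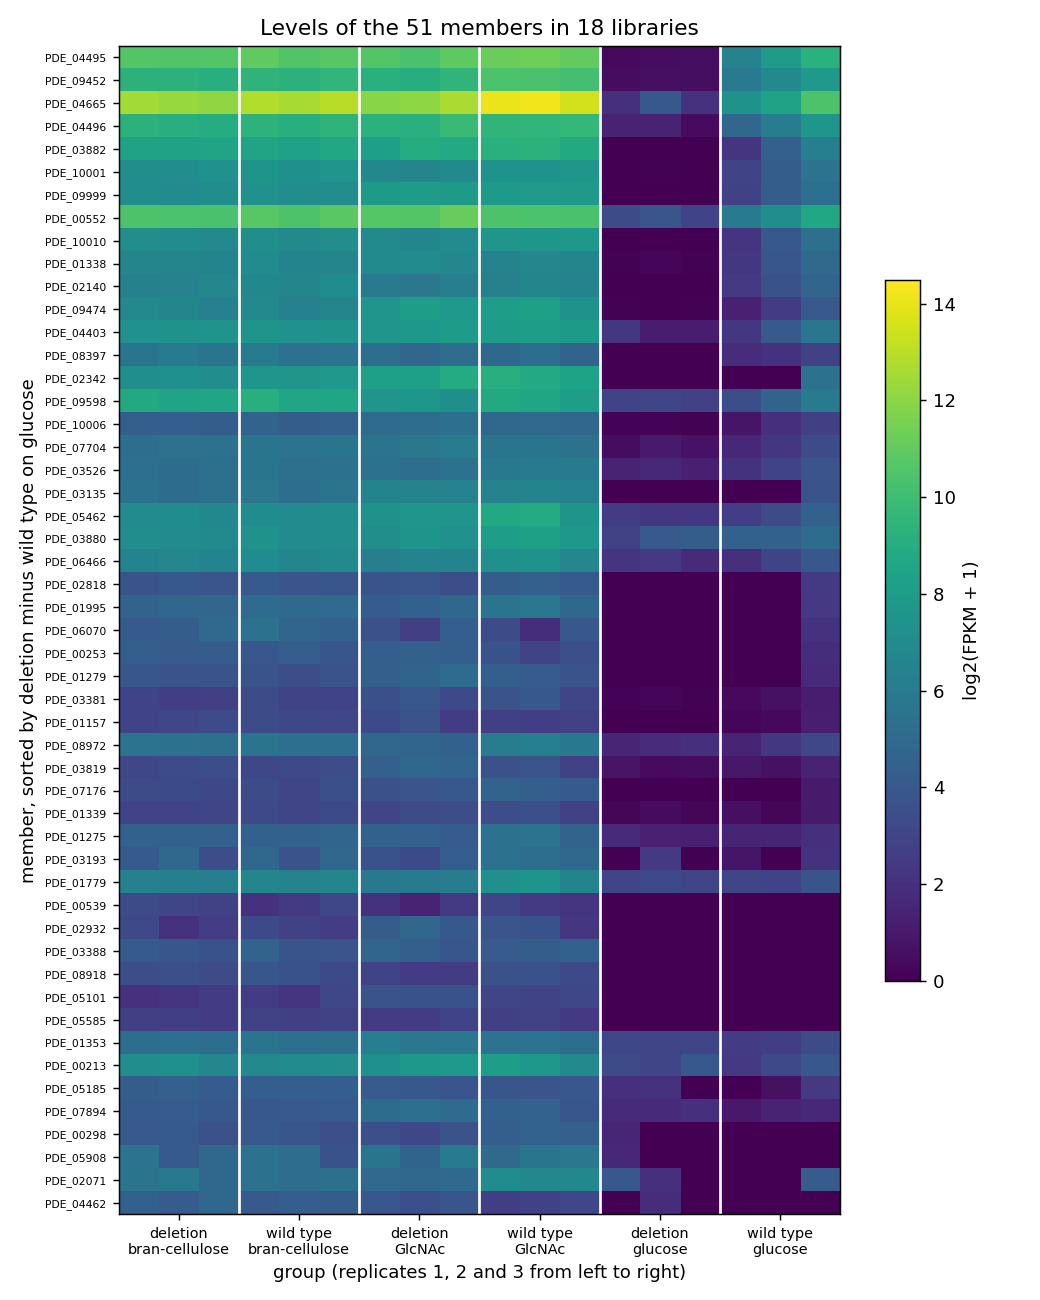
Each row is 1 of the 51 members and each column 1 of the 18 libraries, coloured by log2(FPKM + 1), with white lines between groups. The 12 libraries without glucose are at the left, the 3 deletion glucose libraries are near 0 for most rows, and the wild-type glucose libraries at the right lie in between for the upper rows, highest in replicate 3.

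Levels without glucose covered a wide span. In bulk RNA, fewer cells that express a gene and less RNA per cell cannot be told apart. The lowest of the 4 group means was under 10 FPKM for 13 members, from 10 to under 100 for 23, and 100 or more for 15, with a median of 29.8 FPKM. PDE_04665 had the highest. It stood at 5835, 4849 and 4405 FPKM in the deletion and 7248, 6181 and 7749 in the wild type on bran-cellulose. On GlcNAc it was at 3892, 4148 and 6522 FPKM in the deletion and 17354, 18462 and 11726 in the wild type. On glucose it was at 3.01, 14.67 and 3.32 FPKM in the deletion and 164.6, 322.2 and 1385 in the wild type. Every library without glucose was above every glucose library, and the wild-type glucose libraries lay above all those of the deletion.

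PDE_00539 and PDE_05101 had the lowest levels. PDE_05101 was at 3.23, 3.77 and 4.90 FPKM in the deletion and 4.75, 3.64 and 7.49 in the wild type on bran-cellulose. On GlcNAc it was at 12.20, 11.34 and 11.66 FPKM in the deletion and 7.23, 6.97 and 7.35 in the wild type, and it was listed at 0 in all 6 glucose libraries. This was also true of PDE_00539 and 4 other members, 6 in all.

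The gap to glucose had a median of 2.53 on the scale of M, with 9 members at 3 or more. Without wild-type glucose replicate 3 the median was 3.03 and 26 of the 51 members were at 3 or more, and without replicate 1 the median was 2.29 with 4 members. It was greatest for PDE_05908 (4.18) and PDE_03388 (3.89). PDE_05908 was at 44.93, 16.03 and 29.07 FPKM in the deletion and 43.22, 35.62 and 11.42 in the wild type on bran-cellulose. It was at 48.29, 24.36 and 61.33 FPKM in the deletion and 31.72, 48.47 and 53.30 in the wild type on GlcNAc. Of the glucose libraries, replicate 1 of the deletion had 2.12 FPKM and the other 5 were listed at 0. PDE_03388 was listed at 0 in all 6 and lay between 11.55 and 25.53 FPKM in the libraries without glucose.

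Just inside the limit on the gap were PDE_03381 (2.004) and PDE_04462 (2.009), and just outside were PDE_09538 (1.99) and PDE_07434 (1.98). Just inside the limit on the range were PDE_02071 (1.93) and PDE_04665 (1.71), and just outside were PDE_04438 (2.41) and PDE_09040 (2.495). The genes next to the limit on the gap thus had nearly the same gap on either side. Before the range was applied, 57 genes met that limit. In 50 of 51 members every library without glucose was above every glucose library, against 9.95% of the 8390 genes tested, from which nothing is read because the rule used these means. The exception was PDE_06070, with a lowest library of 2.72 FPKM without glucose and a highest glucose library of 3.39 FPKM.

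How many genes met the rule depended on wild-type glucose replicate 3. Without that library 89 genes met it, all 51 members among them, and without wild-type glucose replicate 1 there were 41, of which 40 were members. Leaving out any 1 of the other 16 libraries gave between 47 and 53.

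Among the 4 groups without glucose the range of M had a median of 0.86 and was under 1 for 30 members. The group with the highest mean was the wild type on GlcNAc for 25 members, the deletion on GlcNAc for 17, the wild type on bran-cellulose for 5 and the deletion on bran-cellulose for 4. No share of all genes is given for these counts and they were not repeated under other scalings, so nothing is read from them. PDE_05585 had the steadiest level of all members, with a range of 0.15. It was at 5.65, 5.43 and 4.83 FPKM in the deletion and 5.89, 5.74 and 6.31 in the wild type on bran-cellulose. On GlcNAc it was at 4.91, 4.92 and 6.47 FPKM in the deletion and 5.59, 5.91 and 4.37 in the wild type, and it was listed at 0 on glucose. On bran-cellulose its highest deletion library was just below its lowest wild-type library, and the genotypes overlapped on GlcNAc.

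The spread within groups differed between members. Averaged over the 6 groups, the SD of log2(FPKM + 1) was least for PDE_05585 (0.091) and PDE_05101 (0.13) and greatest for PDE_02071 (0.87) and PDE_03193 (0.77). PDE_02071 was at 14.20, 3.02 and 0.00 FPKM in the deletion and 0.00, 0.00 and 17.66 in the wild type on glucose, so the libraries of each genotype disagreed.

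The deletion and the wild type were compared on glucose to see whether the low level of these genes was the same in both genotypes. For part of them it was lower still in the deletion: 19 members (37.3%) fell, 0 rose and 32 were not called, where a call needs an adjusted p under 0.05 in limma's test and a log2 difference of 1 or more in size. Among all 8390 genes tested, 11.0% were called, with 6.14% that fell and 4.91% that rose. The median difference was -0.71 over the members and 0.09 over all genes, on the scale of log2(FPKM + 1). Without wild-type replicate 3 the medians were -0.13 over the members and 0.10 over all genes, and without replicate 1 they were -1.07 and 0.08. The rule capped both glucose means but did not set which was lower. On this scale a member with a wild-type glucose mean under 1 FPKM cannot fall by 1. Likewise, 1 with a deletion glucose mean under 1 FPKM cannot rise by 1. Of the members, 9 were listed at 0 in all 3 wild-type glucose libraries, and 6 of these in all 6 glucose libraries. PDE_00253, PDE_01157, PDE_01279, PDE_01339, PDE_03381 and PDE_07176 had wild-type glucose means from 0.363 to 0.92 FPKM. The 32 therefore include these and the 9 listed at 0, none of which could be called as lower. Over the members the deletion glucose means had a median of 0.217 FPKM, and 20 members were listed at 0 in all 3 deletion libraries. Most members therefore could not be called as higher. The 0 that rose is not read against the share of all genes.

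The 19 members that fell had wild-type means from 3.18 to 624 FPKM on glucose and deletion means from 0 to 9.74 FPKM. Without wild-type replicate 3 the wild-type means ran from 1.89 to 243.4 FPKM. In 18 of the 19 the libraries of the genotypes did not overlap, and over all members this held for 21 in the lower and 1 in the higher direction, against 15.5% and 26.1% of all genes. The 1 member in the higher direction was PDE_07894, named after its values were seen and not called. Without wild-type replicate 3 the counts were 21 in the lower and 3 in the higher direction. Leaving out a library cannot create an overlap, and no share of all genes is given for that setting. Nothing is read from these 2 counts. The exception among the 19 was PDE_04403, at 4.20, 1.13 and 1.18 FPKM in the deletion and 4.02, 16.16 and 50.76 in the wild type.

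PDE_04495 and PDE_09452 had the greatest differences. PDE_04495 was at 0.30, 0.42 and 0.43 FPKM in the deletion and 90.2, 256.5 and 614.6 in the wild type on glucose. The means were 0.383 ± 0.072 FPKM in the deletion and 320.4 ± 268 in the wild type (SD, n = 3 each). The log2 difference was -7.46 (SE 0.44, limma adjusted p = 6.97e-09). The SD of log2(FPKM + 1) on glucose was 0.077 in the deletion and 1.38 in the wild type. This SE is shared over all groups and understates the wild-type spread. Without wild-type replicate 3 the wild-type mean was 173.3 FPKM and the difference -6.79, and without replicate 1 they were 435.6 FPKM and -8.17, with the call kept in both. The same gene was at 1571, 1519 and 1551 FPKM in the deletion and 2018, 1512 and 1705 in the wild type on bran-cellulose. On GlcNAc it was at 1592, 1306 and 1910 FPKM in the deletion and 2346, 2492 and 2105 in the wild type. On neither of these media was the gene called between the genotypes.

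PDE_09452 was at 0.41, 0.54 and 0.48 FPKM in the deletion and 58.9, 120.3 and 219.8 in the wild type on glucose. Its log2 difference was -6.31 (SE 0.30, limma adjusted p = 6.94e-10), and -5.85 without wild-type replicate 3. On GlcNAc it also fell, at 598.1, 524.7 and 708.5 FPKM in the deletion and 1354, 1315 and 1127 in the wild type (log2 difference -1.06, limma adjusted p = 0.00688). That GlcNAc call ended under quantile normalization (-0.66) and without deletion GlcNAc replicate 2 (-0.95).

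Of the 19 members that fell, 5 were listed at 0 in all 3 deletion glucose libraries and at levels above 0 in every wild-type one. PDE_03882 was the most abundant of these 5, a feature chosen after its values were seen. It was listed at 0 in the deletion and stood at 3.73, 20.63 and 77.07 FPKM in the wild type on glucose, while its means on the other media lay between 334.3 and 553.6 FPKM. Against a group listed at 0 no fold is given.

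As a share of the lowest mean without glucose, the glucose mean of the 19 members that fell had a median of 0.098% in the deletion and 16.5% in the wild type. For the 32 members that were not called the medians were 2.06% in the deletion and 9.71% in the wild type. The wild-type shares depended on the library left out. Without wild-type replicate 3 the medians were 9.17% for the 19 and 0% for the 32, and without replicate 1 they were 22.6% and 12.3%. Those 32 members were also less abundant: the lowest mean without glucose had a median of 12.6 FPKM, against 122 FPKM for the 19. Their glucose means ran from 0 to 13.3 FPKM in the deletion and from 0 to 25.5 FPKM in the wild type. The wild-type median was 1.10 FPKM, against 21.1 FPKM for the 19. The contrast between the 19 and the 32 is thus partly set by the floor of the scale. It is also set by the call that divided them, which needs a lower level in the deletion. The rule caps the shares in both genotypes, so these shares are a description.

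The unequal wild-type glucose libraries touch this comparison, because the shared fit takes a gene's spread from all 6 groups. Over the members the median SD of log2(FPKM + 1) was 0.94 in wild-type glucose and 0.064 in deletion glucose. For members that vary widely in wild-type glucose, the shared SEs and p-values are too small. In a fit of the 6 glucose libraries alone, 12 members fell, and all 12 were among the 19. The lowest limma adjusted p of a member was then 0.00255, against 6.94e-10 in the shared fit. Over all 8390 genes tested, the fit of 6 libraries called 311 higher and 373 lower, against 412 and 515 in the shared fit. Without wild-type glucose replicate 3, 18 of the 19 were still called, and the lowest number over the other 5 libraries left out in turn was 18.

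**Figure D2:**
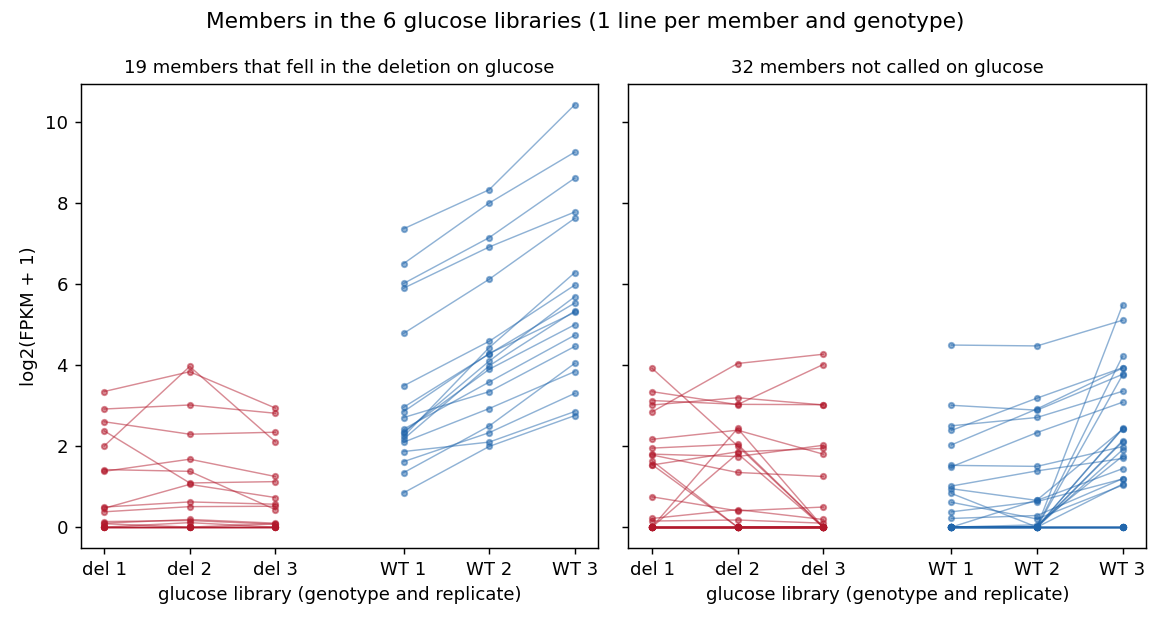
The y axis is log2(FPKM + 1) and the x axis the 6 glucose libraries, deletion (red) left of wild type (blue), with a line joining the libraries of 1 member. The 19 members that fell, at left, are highest in wild-type replicate 3, intermediate in replicate 2 and lowest in replicate 1. Among the 32 members that were not called, at right, 8 are at 0 in wild-type replicates 1 and 2 and above 0 in replicate 3.

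The differences among the wild-type glucose libraries were shared by most members. Replicate 3 was the highest of the 3 libraries in 42 of 51 members, against 41.3% of all genes tested. The other 9 members were listed at 0 in all 3 wild-type glucose libraries, so none of these libraries could be the highest. Replicate 3 lay at least 1 above replicate 1 on the log2(FPKM + 1) scale in 32 of 51, against 6.2% of all genes. The rule used the mean of these libraries and not their differences. The median difference between replicates 3 and 1 was 1.75 over the members and 0.02 over all genes.

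The other groups were more even over the members. The highest library was at least 1 above the lowest, on the same log2 scale, in 4 members in the deletion and 3 in the wild type on bran-cellulose, against 4.78% and 5.15% of all genes. The numbers were 5 in the deletion and 4 in the wild type on GlcNAc, against 8.33% and 4.6%. On glucose they were 9 in the deletion and 32 in the wild type, against 10.6% and 11.4%.

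Most of the members that fell on glucose shared this. In 18 of the 19 (94.7%), wild-type replicate 3 was at least 1 above replicate 1 on that scale, and in 14 of the 32 others. Of the 496 genes that fell on glucose and are not members, 194 (39.1%) did so. Among those 32 members, 8 were listed at 0 in wild-type replicates 1 and 2 and above 0 in replicate 3. PDE_02342 was one of these, with 43.93 FPKM in replicate 3, named after its values were seen. Whether cultures, RNA or libraries differed was not tested.

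Some members had tags close to one another in number. Another member lay within 5 tag numbers for 12 of 51 members (23.5%), against 4.65% of all 9226 PDE_ tags that had a member so near. Tags numbered side by side are often neighbours on a chromosome, but no genome of this strain was used here, so positions were not checked. The pairs with the closest numbers were PDE_01338 with PDE_01339 and PDE_04495 with PDE_04496.

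The 12 consecutive tags PDE_09999 to PDE_10010 held 4 members, a run singled out after its values were seen. In all 12 the deletion glucose libraries lay below the wild-type glucose libraries, against 15.5% of all genes. All 12 fell in the deletion on glucose in limma's test, against 6.14% of all genes. Their log2 differences lay between -6.08 and -1.74. The 12 tags were measured in the same glucose libraries and are not replicates of one another. Without wild-type replicate 3 the log2 differences of the 12 lay between -5.52 and -1.30. Wild-type replicate 3 was the highest and replicate 1 the lowest glucose library of the wild type in all 12 as well.

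Within the run, the member PDE_10001 was at 0.00, 0.08 and 0.00 FPKM in the deletion and 6.79, 18.43 and 45.43 in the wild type on glucose. Its neighbour PDE_10003 was at 0.06, 0.28 and 0.12 FPKM in the deletion and 30.03, 88.34 and 169.0 in the wild type. PDE_10003 is not a member because its wild-type glucose mean of 95.8 FPKM came too near its means without glucose (204.0 to 353.9 FPKM). Of the 8 tags of the run that are not members, 7 kept a range under 2 without glucose, and their gaps to glucose lay between 0.82 and 1.97. Without wild-type replicate 3, 7 of the 12 tags met the rule, and without replicate 1, 2 did. The exception to the range was PDE_10000, whose mean was 2.21 FPKM in the wild type on GlcNAc.

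**Figure D3:**
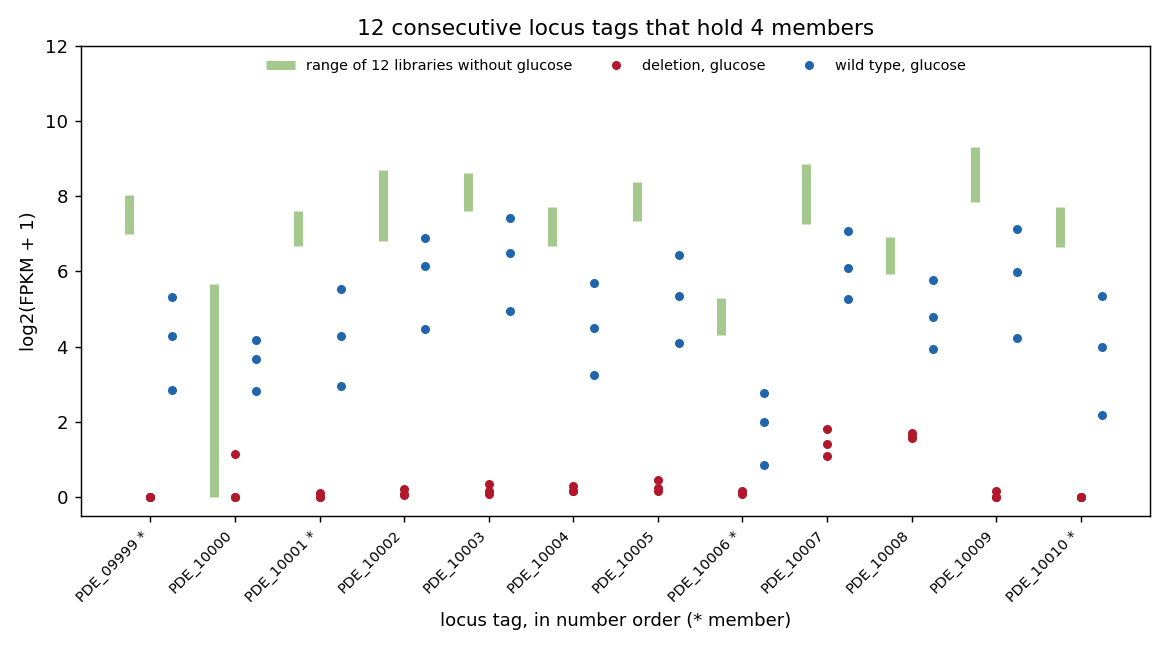
The x axis gives 12 consecutive locus tags with members starred, and the y axis log2(FPKM + 1). Green bars span the 12 libraries without glucose, and points are the 3 glucose libraries of the deletion (red) and of the wild type (blue). The red points lie below 2 in each tag and the blue points lie above the red points. They also lie below the green bars, except for PDE_10000, where all lie within the span of the bar, and PDE_10002, where the highest does.

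On bran-cellulose the shared fit called no member between the genotypes. In limma's test 0 of 51 were called, with 0 at an unadjusted p under 0.05, against 0.393% called among all genes (0.191% higher and 0.203% lower). The rule caps differences among the 4 groups without glucose, so this count is a description. The shared fit also brings in the spread on glucose. Over the members the median SD of log2(FPKM + 1) was 0.94 in wild-type glucose. On bran-cellulose it was 0.11 in the deletion and 0.18 in the wild type, and on GlcNAc 0.22 in both. The shared SE can therefore be too wide here and in the other comparisons without glucose. The median difference was -0.14 over the members and 0.00 over all genes. The libraries did not overlap for 9 members in the lower and 0 in the higher direction, against 9.75% and 9.88% of all genes.

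In a fit of the 6 bran-cellulose libraries alone, again 0 members were called, 6 had an unadjusted p under 0.05 and the lowest limma adjusted p was 0.0713. The greatest differences were those of PDE_00539 and PDE_04665. PDE_00539 was at 9.26, 7.17 and 6.23 FPKM in the deletion and 3.19, 4.41 and 7.55 in the wild type, a log2 difference of 0.55 with overlapping libraries. For PDE_04665 the difference was -0.49, with libraries that did not overlap.

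On GlcNAc 3 members rose and 5 fell in the deletion, against 16.7% and 10.7% of all genes tested (27.4% in either direction). Since the rule kept these groups within a range under 2, a lower share than the background carries no information. The median difference was -0.17 over the members and 0.20 over all genes. Libraries did not overlap for 10 members in the higher and 19 in the lower direction, against 43.1% and 26.0% of all genes. PDE_03819 was at 20.71, 28.20 and 25.66 FPKM in the deletion and 10.87, 13.37 and 6.38 in the wild type. It rose by a log2 difference of 1.25 (SE 0.24, limma adjusted p = 0.000292) with no overlap between libraries.

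PDE_02932 also rose on GlcNAc, with 18.28, 26.06 and 14.64 FPKM in the deletion and 13.23, 11.51 and 3.89 in the wild type (1.08, SE 0.36, limma adjusted p = 0.016). Its call ended without deletion GlcNAc replicate 2 (0.86) or wild-type GlcNAc replicate 3 (0.59). It also ended under both other scalings, in a fit of the compared groups and with array weights. The call of PDE_03819 ended without wild-type GlcNAc replicate 3 (0.97) and with array weights (0.92).

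Among the called members, PDE_04665 and PDE_08972 fell the most on GlcNAc. PDE_02071 (-1.93, SE 0.96, limma adjusted p = 0.0932) and PDE_03193 (-1.42, SE 0.64, limma adjusted p = 0.0626) were not called. Libraries of the genotypes did not overlap for either gene. The SD of log2(FPKM + 1) of PDE_02071 was 1.96 and 2.44 in the deletion and wild type on glucose. On GlcNAc it was 0.021 and 0.14, and the shared SE draws on all groups. PDE_04665 averaged 4854 ± 1450 FPKM in the deletion and 15847 ± 3612 in the wild type (log2 difference -1.72, SE 0.61, limma adjusted p = 0.0229). That call ended under quantile normalization and without deletion GlcNAc replicate 1 or 2 or wild-type GlcNAc replicate 1 or 2. PDE_08972 was at 26.88, 25.62 and 21.68 FPKM in the deletion and 69.78, 75.64 and 56.78 in the wild type (-1.41, SE 0.27, limma adjusted p = 0.000381). Its highest deletion library was well below its lowest wild-type library. It was the 1 member of the 8 whose GlcNAc call was kept in every alternative run.

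The division between rising and falling members on GlcNAc depended on scaling. Median-ratio scaling shifted the all-gene median by -0.20 and gave 1 member that rose and 10 that fell. Over all genes it moved the share of higher calls to 45.4%, against 60.9%. Leaving out deletion GlcNAc replicate 2 or wild-type GlcNAc replicate 2 gave 4 called members each.

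**Figure D4:**
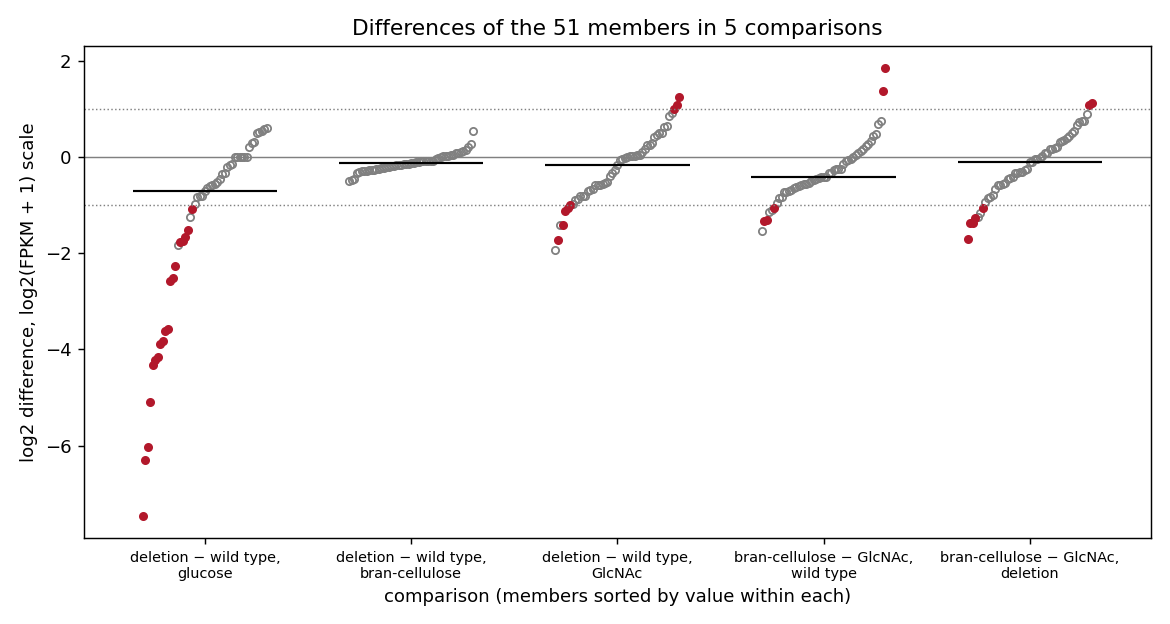
The y axis is the log2 difference of each of the 51 members on the scale of log2(FPKM + 1), and the x axis 5 comparisons, with members sorted by value within each. Filled red points are called, open grey points are not, black bars are medians and dotted lines mark the fold threshold of 1. The differences on glucose reach -7.46, those on bran-cellulose stay between -0.49 and 0.55, and the others stay within 2 as the rule demands of the group means.

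Bran-cellulose and GlcNAc were compared within each genotype to see how far the 2 media without glucose differed for these genes. In the deletion 2 members rose and 5 fell on bran-cellulose relative to GlcNAc, against 11.4% and 8.75% of all genes (20.1% in either direction). In the wild type 2 rose and 3 fell, against 12.2% and 6.53% (18.7%). The rule capped these differences too. The medians over the members were -0.12 in the deletion and -0.41 in the wild type, against -0.02 and 0.15 over all genes. Libraries of the media did not overlap for 10 members in the higher and 19 in the lower direction in the deletion, against 31.1% and 33.9% of all genes. In the wild type the counts were 6 and 20, against 40.5% and 21.8%.

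In the deletion PDE_09598 and PDE_00539 were the 2 members that rose. PDE_09598 was at 440.6, 355.5 and 373.8 FPKM on bran-cellulose and 186.5, 205.7 and 147.5 on GlcNAc (log2 difference 1.12, SE 0.42, limma adjusted p = 0.0334). PDE_00539 was at 9.26, 7.17 and 6.23 FPKM on bran-cellulose and 3.44, 1.61 and 4.56 on GlcNAc (1.08, SE 0.29, limma adjusted p = 0.00543). Libraries of the media did not overlap for either gene. The call of PDE_09598 ended when any of 5 of the 6 libraries was left out, the exception being GlcNAc replicate 2. The call of PDE_00539 ended without bran-cellulose replicate 1 (0.94) or GlcNAc replicate 2 (0.77), and under quantile normalization (0.84).

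PDE_02932 and PDE_03819 fell the most on bran-cellulose in the deletion. PDE_02932 was at 8.36, 3.11 and 5.11 FPKM on bran-cellulose and 18.28, 26.06 and 14.64 on GlcNAc (-1.71, SE 0.36, limma adjusted p = 0.00093). PDE_03819 was at 7.35, 9.35 and 10.11 FPKM on bran-cellulose and 20.71, 28.20 and 25.66 on GlcNAc (-1.38, SE 0.24, limma adjusted p = 0.000171). These are also the 2 members that rose most on GlcNAc in the deletion, and both comparisons use the same deletion GlcNAc libraries. Without deletion GlcNAc replicate 2, 4 members were called between the media in the deletion.

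In the wild type PDE_06070 and PDE_04462 rose on bran-cellulose. PDE_06070 was at 43.63, 25.70 and 21.79 FPKM on bran-cellulose and 9.21, 2.72 and 14.56 on GlcNAc (1.84, SE 0.59, limma adjusted p = 0.018). PDE_04462 was at 16.16, 19.41 and 18.28 FPKM on bran-cellulose and 5.34, 6.26 and 7.65 on GlcNAc (1.36, SE 0.35, limma adjusted p = 0.00492). For both genes the media did not overlap, and the GlcNAc libraries of PDE_06070 varied the most.

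Among the called members, PDE_05462 and PDE_09474 fell the most on bran-cellulose in the wild type. PDE_02071 had a greater difference of -1.54 without overlap between libraries, but was not called (SE 0.96, limma adjusted p = 0.207). PDE_05462 was at 132.4, 127.4 and 138.6 FPKM on bran-cellulose and 442.8, 475.6 and 179.7 on GlcNAc (-1.33, SE 0.37, limma adjusted p = 0.00764). PDE_09474 was at 111.4, 83.0 and 94.3 FPKM on bran-cellulose and 279.6, 301.2 and 164.7 on GlcNAc (-1.32, SE 0.46, limma adjusted p = 0.0267). In both genes wild-type GlcNAc replicate 3 was the lowest of its group and still above every bran-cellulose library. PDE_09474 was the 1 member called between the media in both genotypes, with a difference of -1.26 in the deletion. The call in the deletion ended with a pseudocount of 0.1 FPKM, with array weights and without any 1 of 4 of the 6 libraries (bran-cellulose replicates 2 and 3, GlcNAc replicates 2 and 3).

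Of the 5 wild-type calls, that of PDE_05462 was kept in every alternative run, with differences between -1.78 and -1.08, and the other 4 each ended in at least 1. With a pseudocount of 0.1 FPKM 1 member was called, and PDE_06070, PDE_04462 and PDE_09474 lost their calls. In a fit of the 6 libraries alone 8 were called. Leaving out 1 library changed the 5 to 3 without bran-cellulose replicate 2, GlcNAc replicate 1 or GlcNAc replicate 2. PDE_06070 lost its call without bran-cellulose replicate 1 or GlcNAc replicate 2. PDE_09474 lost its call without bran-cellulose replicate 2 or 3, or GlcNAc replicate 1 or 2. With median-ratio scaling the all-gene median shifted by -0.17, which gave 2 members that rose and 5 that fell, and over all genes a share of higher calls of 54.7% against 65.1%.

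Whether the genotype difference differed between bran-cellulose and GlcNAc was tested as an interaction in limma. It was higher on bran-cellulose for 2 members and lower for 2, against 9.8% and 15.3% of all genes (25.1% in either direction). The rule capped these values too. The greatest value was that of PDE_02071 (2.04, SE 1.36), which was not called (limma adjusted p = 0.229). PDE_08972 had 45.41, 41.05 and 39.33 FPKM in the deletion and 46.47, 38.11 and 38.57 in the wild type on bran-cellulose, where the genotypes overlapped. Its fall in the deletion on GlcNAc is given above, and the interaction was 1.44 (SE 0.39, limma adjusted p = 0.0065).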

How the data were processed

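RNA of P. oxalicum mycelium was measured in 18 libraries, 3 per group, and each column was matched to its sample by name. The authors deposited FPKM values, per the file headers, while the labels' protocols describe NlaIII and MmeI tag libraries. The sources used here do not name the aligner, counter, build or annotation. Read depth is unknown, because 19.0% of low values lay within 0.1 of a whole step of 1 read, a band that covers 20% of the range. No count model was therefore used. With 3 libraries against 3, an exact permutation test of 1 gene cannot go below p = 0.1.

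Of 9261 genes, 8390 reached 1 FPKM in 3 or more libraries and were tested, among them all 51 members, which could pass through the groups without glucose alone. limma 3.58.1 in R 4.3.3, two-sided and with an intensity trend, was fitted to log2(FPKM + 1) with 1 mean per group, and checked on simulated data. P-values were adjusted by Benjamini-Hochberg over the 8390 genes in each of 6 comparisons. The words "rose" and "fell" refer to calls (adjusted p under 0.05, log2 difference of 1 or more in size). Differences on this scale understate the changes of low genes. Named in each comparison were up to 2 members that rose and 2 that fell, with the greatest differences, or the greatest difference each way where there was no call. The extremes of level, gap and spread and the genes next to the limits of the rule were also named. Members and comparisons were chosen with earlier results of these data known. Gene lists and spore markers planned by name could not be formed, since 0 identifiers matched the reference gene table of another strain. Alternatives were another pseudocount, no filter, 2 other scalings, fits of the compared groups, a replicate block, no fold threshold, other limits of the rule and each library left out. Array weights were chosen after seeing the data.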

Additional observations from a re-analysis of the deposited data

Results flagged for a closer look

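Whether the genotype difference itself differed between bran-cellulose and GlcNAc was tested as an interaction in limma. For 4 of 51 members it did, against 25.1% of all genes, and the rule capped the size of these differences. For PDE_08972 the difference between deletion and wild type was higher on bran-cellulose than on GlcNAc by 1.44 (SE 0.39, limma adjusted p = 0.0065). For PDE_00539 it was higher by 1.14 (SE 0.41, limma adjusted p = 0.0307). For PDE_02932 the value was -1.36 (SE 0.50, limma adjusted p = 0.0356) and for PDE_03819 -1.22 (SE 0.33, limma adjusted p = 0.00708).

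Several of these calls rested on single libraries. The call of PDE_00539 ended without any 1 of 5 of the 12 libraries, that of PDE_02932 without any 1 of 7, and that of PDE_03819 without wild-type GlcNAc replicate 3 (-0.95). The PDE_08972 call was kept in every alternative run. Without wild-type bran-cellulose replicate 1 or deletion GlcNAc replicate 2, 2 members were called. Median-ratio scaling gave 5 members higher and 1 lower, and shifted the all-gene median by 0.21. Over all genes the share of higher calls was then 55.1%, against 39.0%. Array weights gave 10 members higher and 1 lower. Over all genes they gave 898 higher and 1423 lower, against 822 and 1286 in the main fit.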

How the results depend on the processing

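Of 304 values of named members under alternatives, 256 kept their direction and their side of the thresholds, 48 kept the direction but lost the call, and 0 reversed. Part of this was fixed in advance. No filter, fits of the compared groups, the replicate block and no fold threshold leave each difference unchanged, so its direction could not reverse there. Without the fold threshold no call can be lost either. The number of members called on glucose was 19, and 12 in a fit of the groups compared. Over all 8390 genes tested, 412 were called higher and 515 lower on glucose, and 311 and 373 in that fit. On GlcNAc 8 members were called, 5 under quantile normalization and 16 without the fold threshold. Over all genes 1401 were called higher and 898 lower on GlcNAc, and 1104 and 1034 under quantile normalization. Without the fold threshold the all-gene counts were 3449 and 1932, so the 16 members are not read as a gain over other genes. Between bran-cellulose and GlcNAc in the wild type 5 members were called, and 1 with a pseudocount of 0.1 FPKM. There were 8 in a fit of the groups compared, 10 without the fold threshold and 10 with array weights. Over all genes 1022 were called higher and 548 lower there, and 1140 and 562 with that pseudocount. The all-gene counts were 1019 and 550 in the fit of the groups compared. They were 2755 and 1282 without the fold threshold and 1082 and 581 with array weights. In the deletion 7 members were called between these media, and 14 without the fold threshold. Over all genes 954 were called higher and 734 lower, and 2188 and 2452 without that threshold. For the difference between media of the genotype difference 4 members were called, 9 without the fold threshold and 11 with array weights. Over all genes 822 were called higher and 1286 lower. These counts were 1449 and 2756 without the fold threshold and 898 and 1423 with array weights. The cause of these changes in the counts was not tested. Leaving out 1 library gave 18 to 24 called members on glucose, 0 on bran-cellulose and 4 to 9 on GlcNAc. Between media it gave 3 to 5 in the wild type and 4 to 7 in the deletion. For the difference of differences it gave 2 to 5. The rule chose 51 genes, 93 with a gap of 1.5, 9 with a gap of 3 and 41 to 89 with 1 library left out. The count of members with no overlap was 50 to 51 in the same way. Between libraries with the same replicate number, correlations of deviations from group means lay between -0.0967 and 0.196. With 3 libraries per group these cannot exclude shared batches, and the main fit treated the replicates as unpaired. With the replicate block 19, 0, 7, 5, 7 and 4 members were called in the 6 comparisons. Depth is unknown, so levels listed at 0 have no stated limit.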
